A study of Mus musculus with 17 samples.

Results

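The 10 genes described here, Acta2, Actg2, Tagln, Cnn1, Myl9, Tpm1, Tpm2, Myh11, Des and Lmod1, encode parts of the contractile apparatus of smooth muscle. They were chosen by name, by matching mouse gene symbols to the 35896 Ensembl gene IDs listed for each library, and all 10 were found. All 10 were also among the 13923 genes that passed the filter on low counts and were tested. RNA sequencing was done on 17 libraries of pancreatic stellate cells from wild-type C57BL/6J mice, in 2 cell lines named PSC4 and PSC5, cultured for 4 days in Matrigel, a commercial basement membrane extract. The control group had control medium alone (5 libraries). The TGF-beta group had control medium with 20 ng/mL TGF-beta (4 libraries). The conditioned medium (CM) group had medium conditioned by pancreatic tumour organoids (4 libraries), and the neratinib group had such medium with neratinib, a small molecule that blocks ERBB family kinases, at 300 nM (4 libraries). No group had neratinib without CM, so its effect can be read only within CM. Both lines are in every group, and the libraries of a group are passages of these lines, so the p-values measure the spread between passages of 2 lines and not between animals. The series text calls the cells in control medium quiescent and those given TGF-beta myofibroblast-like (myCAF).

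Pancreatic stellate cells are resident fibroblast-like cells of the pancreas that can become myofibroblasts, and alpha-smooth muscle actin, the product of Acta2, is the usual marker of that state. In smooth muscle, actin filaments carry tropomyosin, calponin and transgelin, and are pulled by myosin whose regulatory light chain is switched by phosphorylation. Many genes of this apparatus are transcribed through CArG boxes, short A- and T-rich elements bound by serum response factor (SRF) with its cofactors myocardin and the myocardin-related factors. TGF-beta is widely used to raise Acta2 in fibroblasts, and the comparison with control medium asks whether the other genes of the group followed Acta2 here.

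Depth was similar in all libraries, from 22168953 to 29421447 counts, and levels are given as CPM, the usual depth-scaled count, after correction of the library total with the TMM factor of edgeR. The control, CM and neratinib groups each hold a library with the label PSC4 replicate 1, and these 3 first-replicate PSC4 libraries stood apart. Over genes above a floor on their summed counts, the deviation of the control library labelled PSC4 replicate 1 from its group mean correlated negatively with those of the PSC4 libraries of other groups (median r = -0.56 over 4 libraries) and positively with those of PSC5 (median r = 0.34 over 6 libraries). The CM and neratinib libraries with that label did the same, with median r = -0.45 and -0.29 against PSC4 and 0.25 and 0.19 against PSC5. The TGF-beta group has no such library. Results that rest on these libraries are given with and without them, and the cause of the difference was not tested.

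Markers of the labelled cell type were mixed. Of 12 stellate cell or fibroblast markers, Col1a1, Pdgfrb and Vim were abundant, whereas Lrat, which esterifies retinol in quiescent stellate cells, had at most 1 count and Gfap at most 9 counts in any library. Markers of vascular smooth muscle and pericytes were mixed too. Myocd, the gene of myocardin, had 2 to 14 counts per library, and the pericyte marker Higd1b had 0 counts throughout. Others were well detected in control libraries: Notch3 had 1317 to 2956 counts, Mcam 839 to 1041 and Cnn1 321 to 586. The 10 vascular smooth muscle and pericyte markers, which include Cnn1 and Myh11, summed to 102 to 167 CPM in control, 171 to 247 CPM with TGF-beta, 72.8 to 96.2 CPM in CM and 28.8 to 88.3 CPM with neratinib, and their part in the results was not tested. In bulk RNA, fewer cells of a type and less RNA per cell cannot be told apart.

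The promoters of Acta2 and Myl9 are shown because, of the 7 members with a RefSeq promoter sequence (Actg2, Tagln and Myh11 are not among them), they were the ones that held a CArG box within 250 bases before and 50 bases after the gene start that RefSeq gives. The box was searched on both strands, allowing at most 1 C or G in its A- and T-rich middle, and 9.98% of 32851 mouse promoters of that length held at least 1. Capitals mark the boxes, 84 and 34 bases before the start of Acta2 and 161 and 99 bases before the start of Myl9, counted from the RefSeq starts. The GENCODE genes, whose coordinates are given with the results, start farther upstream, so the Acta2 window lies inside the span of its GENCODE gene. In the GRCm38.p6 build the Acta2 window is chr19:34255378-34255477 on the minus strand and the Myl9 window is chr2:156775283-156775394 on the plus strand.
Acta2: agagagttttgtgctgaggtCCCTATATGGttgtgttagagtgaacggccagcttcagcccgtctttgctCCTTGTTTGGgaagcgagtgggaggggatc
Myl9: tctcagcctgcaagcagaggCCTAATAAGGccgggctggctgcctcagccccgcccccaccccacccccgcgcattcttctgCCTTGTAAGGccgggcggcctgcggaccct
The box in Myl9 that lies farther from the start had no C or G in its middle, a match found in 1.63% of the promoters. A match of letters is a description and not a measured binding site, and of these 2 members Myl9 fell under TGF-beta and Acta2 was not called.

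**Figure D1:**
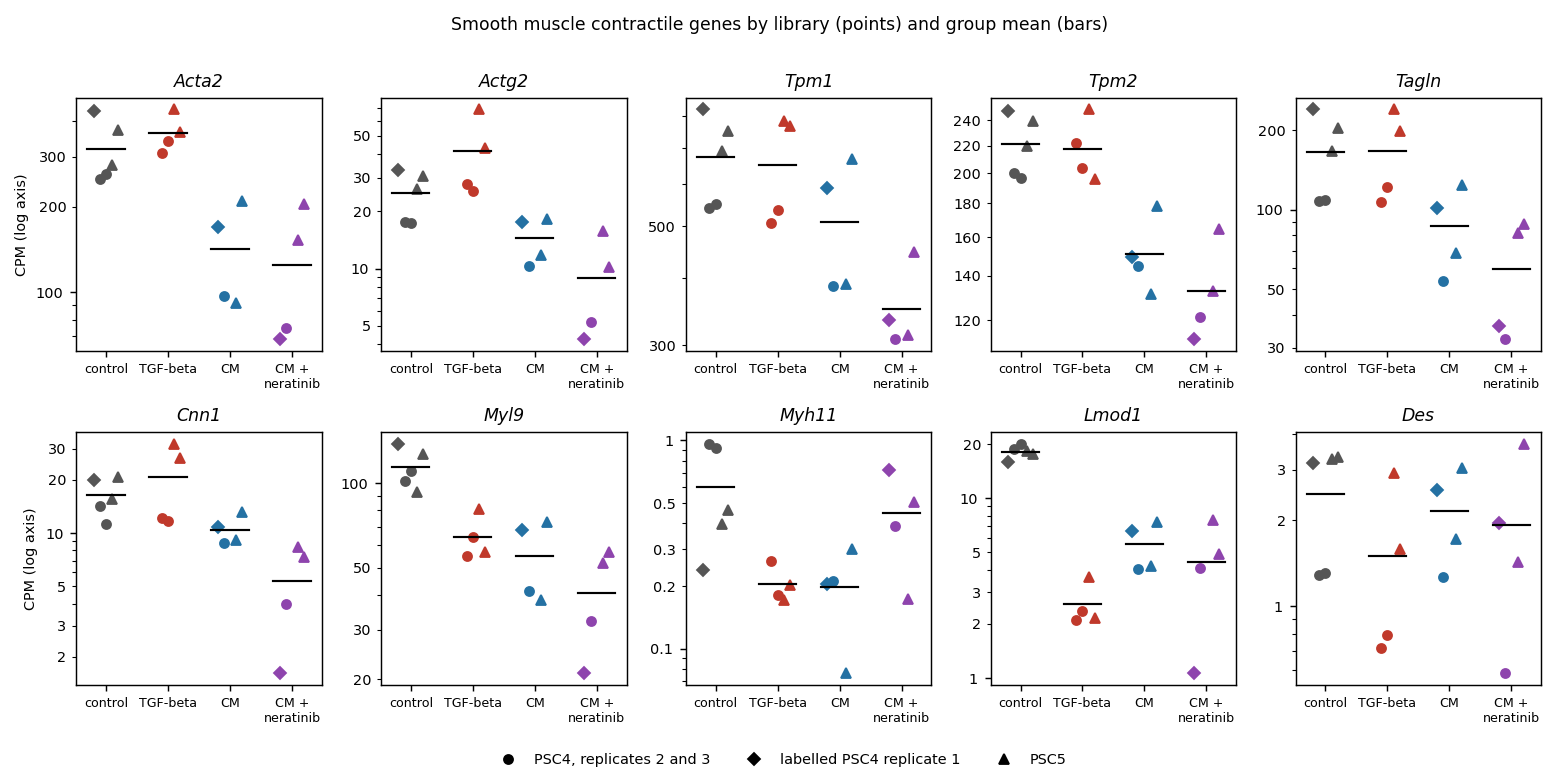
CPM of each of the 10 genes (vertical, log axis) in each library, by group; circles are PSC4 replicates 2 and 3, diamonds the libraries labelled PSC4 replicate 1, triangles PSC5, and bars the group means. Acta2 lay between 250 and 432 CPM in control and between 308 and 439 CPM with TGF-beta, whereas Lmod1 fell from at least 15.98 CPM in control to at most 3.65 CPM with TGF-beta.

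In control medium the 10 genes spanned a wide range of abundance. Per kilobase of exon sequence, Acta2 led with 145 ± 36.2 CPM per kb (SD, n = 5), ahead of Tpm1 (103 ± 19.1), Myl9 (98.6 ± 15.9), Tagln (83.1 ± 29.2) and Tpm2 (75.9 ± 7.88 CPM per kb). Among these 5, the libraries of neighbours in the order overlapped. Actg2 (16.02 ± 4.65 CPM per kb), Cnn1 (6.00 ± 1.45) and Lmod1 (4.61 ± 0.391) came next, the last 2 with overlapping libraries. Des (0.659 ± 0.287) and Myh11 (0.0783 ± 0.0429 CPM per kb), 2 genes that mark mature muscle cells, were scarcely detected. Tpm1 has 21 annotated transcripts of very unequal length, and its level per kb rose to 232 when the longest transcript was used in place of all exons, which puts it above Acta2 (157).

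TGF-beta raised none of the 10 genes past the threshold of an adjusted p of 0.05 and lowered 3: Lmod1, Myh11 and Myl9. The test was the quasi-likelihood test of edgeR with Benjamini-Hochberg adjustment over all genes tested; unadjusted, also 0 of 10 were higher and 3 lower at p under 0.05, and DESeq2 gave 0 higher and 3 lower. TGF-beta changed much of the transcriptome, with 40.2% of tested genes called, 19.7% higher and 20.5% lower. Libraries of the 2 groups did not overlap for 2 of the 10 genes, both lower, and for 16.3% of all tested genes in that direction and 16.3% in the other. The median log2 fold change of the 10 genes was -0.11, beside -0.02 over all tested genes.

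Acta2 (ENSMUSG00000035783, chr19:34241090-34255590 of GRCm38, minus strand) is the smooth muscle actin itself. In control medium it stood at 432, 250 and 261 CPM in PSC4 replicates 1 to 3 and at 280 and 371 CPM in PSC5 replicates 1 and 2. With TGF-beta it stood at 308 and 341 CPM in PSC4 replicates 2 and 3 and at 439 and 365 CPM in PSC5 replicates 1 and 2. The groups overlap: the control libraries of PSC4 replicate 1 and PSC5 replicate 2 each lie above 3 of the 4 TGF-beta libraries. The group means were 363 ± 55.6 CPM (SD, n = 4) and 319 ± 79.5 CPM (SD, n = 5), and the log2 fold change was 0.13 ± 0.29 (SE; adjusted p = 0.758, edgeR). The approximate 95% interval of that difference runs from 0.715-fold to 1.67-fold, so a rise larger than that lies outside it. Set against the control library of the same line and passage, Acta2 was higher by 0.31 and 0.39 (log2) in PSC4 and by 0.65 in PSC5 replicate 1, and stood at -0.02 in PSC5 replicate 2. Without the first-replicate PSC4 libraries the value was 0.33 ± 0.23 (adjusted p = 0.266), and 0 of 21 alternative settings called it.

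Actg2 (ENSMUSG00000059430, chr6:83512905-83536265, minus strand) is the actin of visceral smooth muscle, and it had the highest fitted value of the 10 genes under TGF-beta. It stood at 32.9, 17.6 and 17.3 CPM in control PSC4 replicates 1 to 3 and at 26.1 and 30.7 CPM in control PSC5, against 27.99 and 25.7 CPM (PSC4) and 68.6 and 43.1 CPM (PSC5) with TGF-beta. Each TGF-beta library was above the control library of its own passage, by 0.49 to 1.39 (log2). The log2 fold change was 0.58 ± 0.29 (adjusted p = 0.128). It was called higher with the line and passage as a block (0.70, adjusted p = 0.0443) and without the first-replicate PSC4 libraries (0.80, adjusted p = 0.0043). Leaving out only the control library among these also gave a call (0.80, adjusted p = 0.0272). Because smooth muscle, skeletal and cytoplasmic actins are near-identical in coding sequence, the division of reads among them is uncertain.

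The tropomyosins, which lie along the actin filament, were at like levels in the 2 groups. Tpm1 (ENSMUSG00000032366, chr9:67022590-67049406, minus strand) averaged 671 ± 124 CPM in control and 649 ± 147 CPM with TGF-beta, a log2 difference of -0.09 ± 0.18 with a 95% interval of 0.718-fold to 1.22-fold. Tpm2 (ENSMUSG00000028464, chr4:43514711-43523765, minus strand) averaged 221 ± 22.9 and 218 ± 23.7 CPM, with the narrowest interval of the 10 genes, 0.831-fold to 1.15-fold. The interval of Tpm2 leaves the least room for a change.

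Tagln and Cnn1 encode transgelin and calponin, both actin-binding proteins used as smooth muscle markers. Tagln (ENSMUSG00000032085, chr9:45929619-45936058, minus strand) averaged 165 ± 58.1 CPM in control and 167 ± 63.0 CPM with TGF-beta (log2 -0.13 ± 0.29, adjusted p = 0.758). It overlaps Pcsk7 on the opposite strand, and the strandedness of the counting is not given in the sources used here. Within the TGF-beta group, which has no PSC4 replicate 1, Tagln was split by line. The PSC4 libraries had 107 and 122 CPM and the PSC5 libraries 240 and 199 CPM. Control libraries were split alike in the share of Tagln in the CPM per kb of Tagln and Tagln2. That share was 26.6% and 25.5% in PSC4 replicates 2 and 3 and 43.2% and 48.9% in PSC5, with 51.8% in PSC4 replicate 1. Cnn1 (ENSMUSG00000001349, chr9:22099216-22109630, plus strand) averaged 16.4 ± 3.98 and 20.6 ± 10.3 CPM (log2 0.13 ± 0.29, adjusted p = 0.762). Under TGF-beta Cnn1 was again split by line, with 12.2 and 11.7 CPM in PSC4 and 32.1 and 26.6 CPM in PSC5. The fitted difference of Cnn1 in PSC4 alone was -0.33 ± 0.37 and in PSC5 alone 0.69 ± 0.22, neither called, and the test of the difference between the lines gave 1.03 ± 0.47 (unadjusted p = 0.0483, adjusted p = 1.00).

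The myosin genes went down. Myl9 (ENSMUSG00000067818, chr2:156775420-156781658, plus strand) encodes the regulatory light chain of smooth muscle myosin. It stood at 139, 102, 111, 93.5 and 128 CPM in control and at 55.0, 64.1, 80.7 and 56.8 CPM with TGF-beta, in the order of lines and replicates used above. All 4 TGF-beta libraries lie below all 5 control libraries. The log2 fold change was -0.88 ± 0.25 (adjusted p = 0.0127), and 20 of 21 alternative settings called it; the exception was PSC5 alone (-0.68, adjusted p = 0.169). Myh11 (ENSMUSG00000018830, chr16:14194535-14291372, minus strand), the smooth muscle myosin heavy chain, had only 6 to 27 counts per control library and 4 to 7 counts per TGF-beta library. Its log2 fold change of -1.45 ± 0.48 (adjusted p = 0.025) therefore rests on few reads. The Myh11 call was lost without control PSC4 replicate 2 (adjusted p = 0.061) or 3 (0.0561) and without TGF-beta PSC4 replicate 2 (0.0566) or 3 (0.0847).

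Lmod1 (ENSMUSG00000048096, chr1:135324807-135368065, plus strand) had the largest change of the 10 genes. It encodes leiomodin 1, which nucleates actin filaments in smooth muscle. In control medium it stood at 15.98, 18.8 and 20.2 CPM in PSC4 and 18.4 and 17.6 CPM in PSC5, and with TGF-beta at 2.10 and 2.35 CPM in PSC4 and 3.65 and 2.16 CPM in PSC5. The lowest control library lies well above the highest TGF-beta library, PSC5 replicate 1, which itself stood apart from the other 3. The log2 fold change was -2.89 ± 0.37 (adjusted p = 2.8e-05), 7.42-fold lower, and all 21 alternative settings called it, each line alone included (PSC4 -3.02, PSC5 -2.63).

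Des (ENSMUSG00000026208, chr1:75360329-75368579, plus strand) encodes desmin, the muscle intermediate filament that is also a stellate cell marker. It had 36 to 94 counts in control libraries and 19 to 68 counts with TGF-beta. Des was lower in 4 of 4 same-passage pairs, with a log2 fold change of -0.91 ± 0.44 that did not pass the test (adjusted p = 0.115). An antisense gene, Gm15179, overlaps it.

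**Figure D2:**
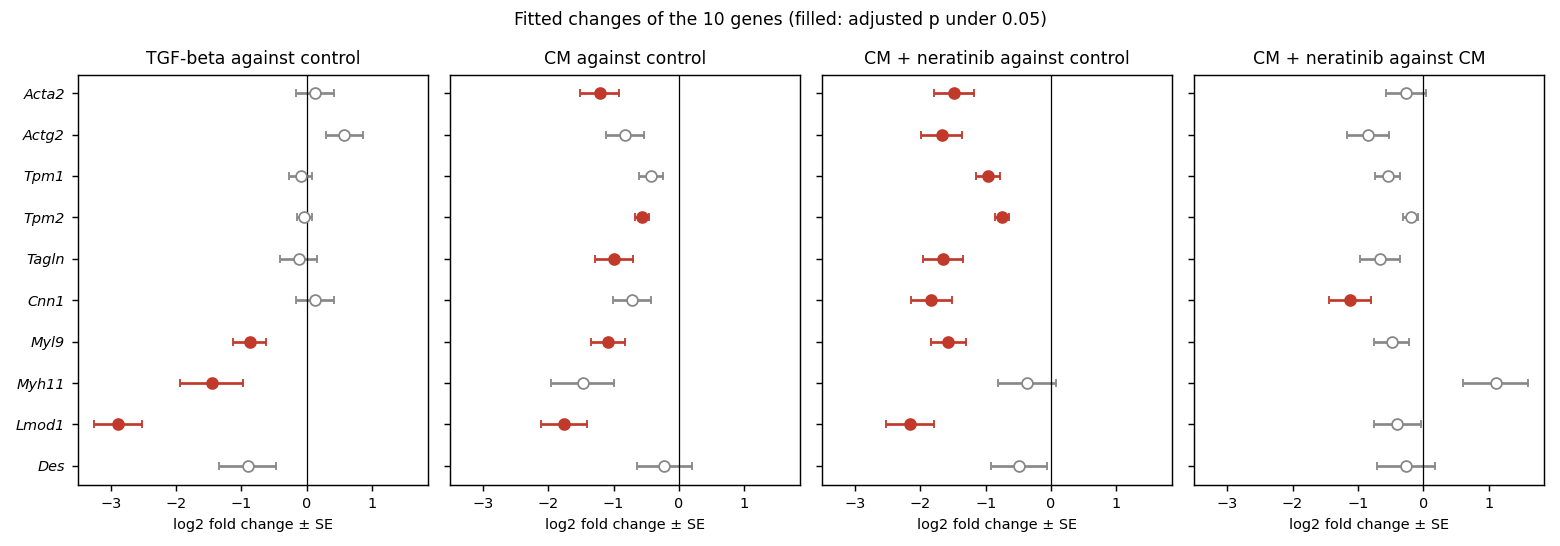
Fitted log2 fold change ± SE of the 10 genes in 4 comparisons over all 17 libraries (filled points: adjusted p under 0.05, edgeR). Under TGF-beta 3 genes were called lower and 0 higher, in CM 5 lower, in CM with neratinib 8 lower, and neratinib against CM gave 1 lower, Cnn1. Over all tested genes, the shares called lower in the same order were 20.5%, 7.14%, 20.9% and 9.63%, and 19.7% were called higher under TGF-beta.

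**Figure D3:**
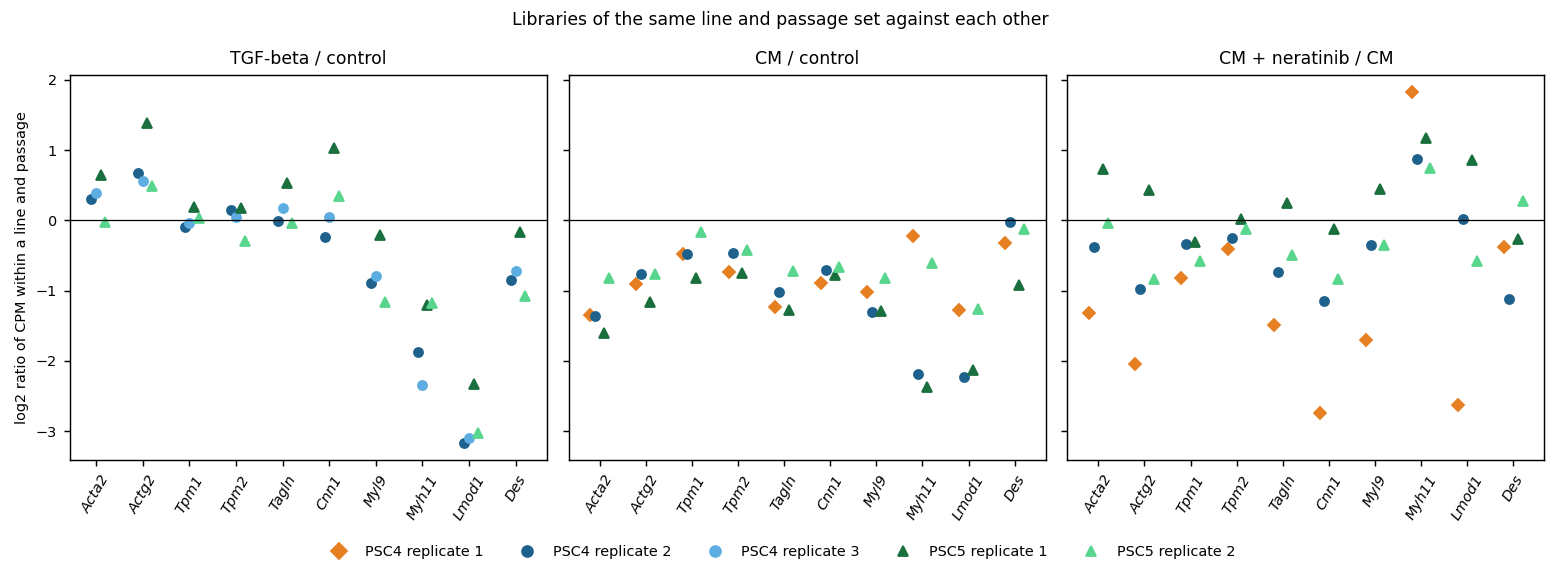
Log2 ratio of CPM between libraries of the same line and passage, for each gene in 3 contrasts (colours and symbols: line and replicate). Actg2 was above 0 in 4 of 4 TGF-beta pairs and Lmod1 below 0 in 4 of 4, every gene was below 0 in 4 of 4 CM pairs, and the pairs of neratinib against CM scattered on both sides for most genes.

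Most genes listed as direct TGF-beta responses rose in the same libraries. Of 20 such genes, 15 rose and 0 fell, with a median log2 fold change of 1.16. Over all tested genes, 19.7% were called higher and 20.5% lower. The list was chosen with earlier results of these data known, so its count is a description and not an independent check of the treatment. Pmepa1, a feedback inhibitor, rose by 3.41 ± 0.24 (log2), Skil by 2.33 ± 0.17, Ccn2 by 2.33 ± 0.30, the collagen gene Col1a1 by 2.13 ± 0.29 and Smad7 by 0.75 ± 0.13. Acta2, often read as a response gene of the same pathway, was at 0.13.

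The cytoplasmic relatives are genes of the same families that are listed as forms of non-muscle cells. The lists are not a strict split of muscle from non-muscle forms. Members such as Tpm1 were abundant in these stellate cells, and counts by gene do not separate the transcripts of a gene. Of 17 tested relatives (18 listed), 12 rose and 0 fell under TGF-beta, with a median log2 fold change of 0.45. Over all tested genes, 19.7% were called higher and 20.5% lower. The values of the relatives ran from -1.76, not called, to 0.74. Libraries did not overlap for 11 relatives in the higher direction and 1 in the lower, beside 16.3% of all tested genes in each. Non-muscle myosin heavy chain Myh9 rose by 0.74 ± 0.14 (adjusted p = 0.00056) and light chain Myl12a by 0.64 ± 0.13 (0.00098), while their smooth muscle counterparts Myh11 and Myl9 fell. Tagln2 rose by 0.74 ± 0.16, Tpm4 by 0.45 ± 0.07 and Actb by 0.50 ± 0.09. Actg1 stood at 0.57 ± 0.22 (adjusted p = 0.0541) and Cnn2 at -0.17 ± 0.12, neither called. Whether the 2 lists differ was not tested, and these counts describe the lists only.

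The shares within each protein family put the same values on 1 scale. By CPM per kb, Acta2 made up 8.77% ± 0.864 of the 6 actin genes in control (SD, n = 5) and 6.94% ± 0.443 with TGF-beta (n = 4), with no overlap between libraries. Acta2 and Actg2 together made up 9.73% ± 0.879 and 8.02% ± 0.703, with overlapping libraries. Myl9 made up 28.1% ± 2.31 of the 3 regulatory light chains in control and 12.8% ± 1.47 with TGF-beta. Tpm1 and Tpm2 together made up 27.7% ± 2.52 of the tropomyosins and 21.7% ± 2.66 with TGF-beta (36.4% and 29.3% with the longest transcript in place of all exons). Libraries of the 2 groups did not overlap for either share. Tagln made up 39.2% ± 12.4 and 28.8% ± 11.2 of the 2 transgelins, with overlapping libraries. Cnn1 made up 2.30% ± 0.457 of the 3 calponins and 2.32% ± 0.935 with TGF-beta. These shares are descriptions with no test, and a share can fall through a rise of the other family members.

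**Figure D4:**
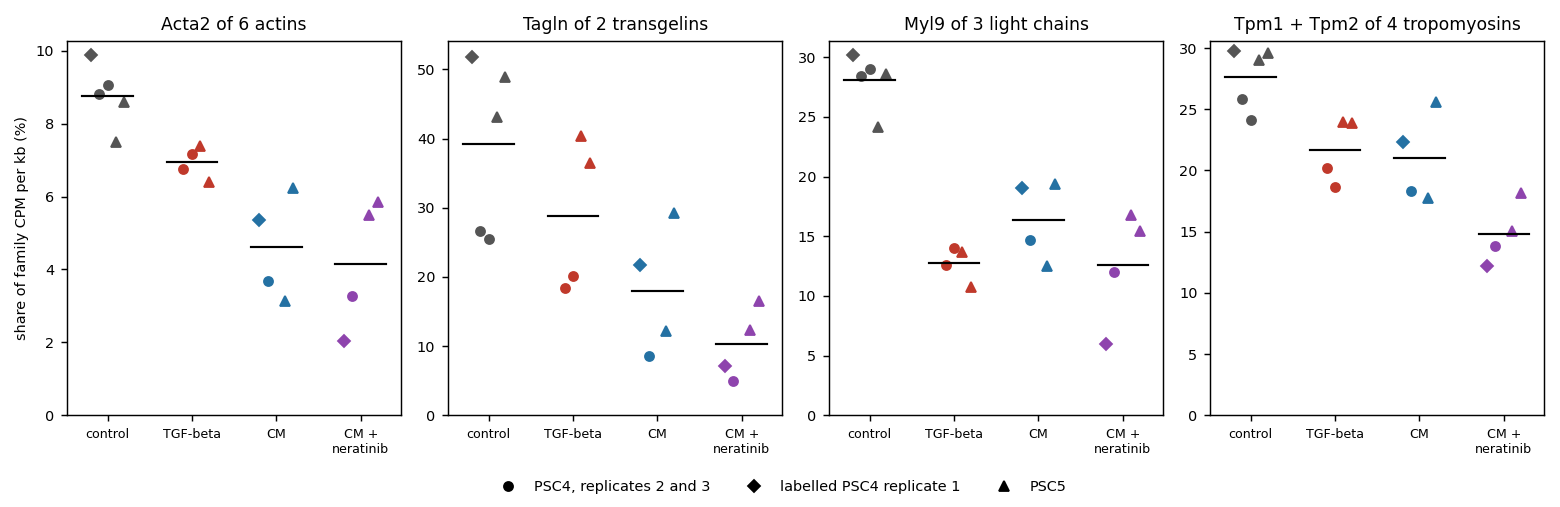
Share of each family's summed CPM per kb held by the genes named above each panel (%, axis from 0), by library and group. For the actins this is Acta2 alone, without Actg2. Bars are means and symbols are as in the plot of CPM by library. The mean share of Acta2 went from 8.77% in control to 6.94% with TGF-beta, 4.61% in CM and 4.16% in CM with neratinib.

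Other filament and anchoring genes of smooth muscle split under TGF-beta: of 26 tested (28 listed), 9 rose and 8 fell. The counts of the lists here stand beside 19.7% of all tested genes called higher and 20.5% called lower. The risers included the fibronectin receptor subunit Itga5 (1.59 ± 0.14), the actin-bundling Palld (1.25 ± 0.11), Pdlim7 (1.24 ± 0.13) and caldesmon, Cald1 (0.26 ± 0.10, adjusted p = 0.0415). Fallers included Mylk, the kinase that phosphorylates the light chain encoded by Myl9 (-2.24 ± 0.44, adjusted p = 0.00096), and Ppp1r12b, a subunit of the phosphatase that reverses this step (-1.25 ± 0.13), together with the integrin subunit Itga1 (-2.13 ± 0.45). Of the sarcomeric genes of striated muscle, 8 of 29 were tested, and 2 rose while 0 fell. Tnni1, slow skeletal troponin I, went from 0.109 ± 0.0229 CPM (2 to 4 counts per control library) to 51.3 ± 4.59 CPM. Tnnt2, cardiac troponin T, went from 0.444 ± 0.165 to 32.8 ± 3.89 CPM. At so few control counts Tnni1 passed the low-count filter only through the TGF-beta group, so a fall of it could not have been seen. The striated muscle actins stayed near 0, with at most 5 counts of Acta1 and 0 counts of Actc1 in any TGF-beta library.

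**Figure D5:**
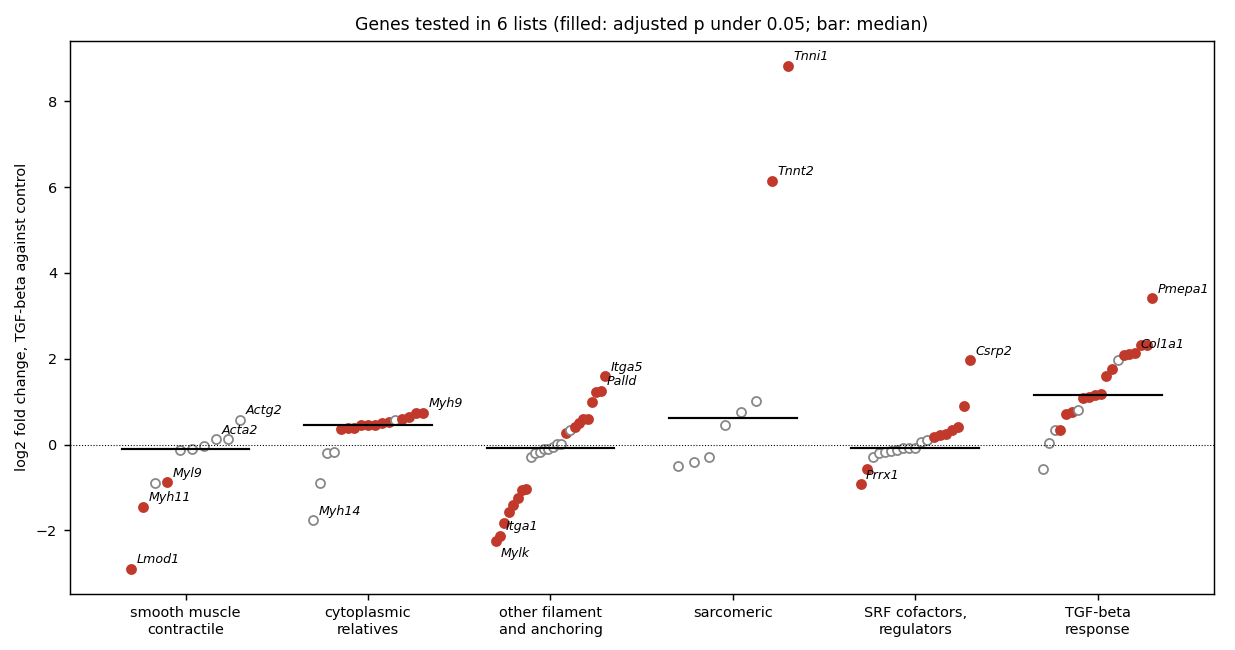
Log2 fold change, TGF-beta against control, of every tested gene in 6 lists (filled: adjusted p under 0.05; bars: medians). The smooth muscle contractile genes had 0 called higher and 3 called lower, the cytoplasmic relatives 12 higher and 0 lower, and the direct response genes 15 higher and 0 lower. Over all tested genes, 19.7% were called higher and 20.5% lower.

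SRF and its myocardin-related cofactors were not called under TGF-beta. Srf stood at 63.9 ± 8.58 CPM in control and 61.5 ± 12.1 CPM with TGF-beta (log2 -0.09 ± 0.09), Mrtfa at -0.20 ± 0.10 and Mrtfb at 0.06 ± 0.09, none called, and Myocd was too low to be tested. Of 19 tested regulators (20 listed), 7 rose and 2 fell under TGF-beta, beside 40.2% of all tested genes called. Csrp2, a LIM-domain partner of SRF, rose by 1.96 ± 0.15, the ETS factor Elk3 by 0.89 ± 0.09 and Fhl3 by 0.40 ± 0.10, and Prrx1 (-0.93 ± 0.11) and Fhl2 (-0.58 ± 0.13) fell.

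In conditioned medium, against control, 5 of 10 genes fell and 0 rose (edgeR; unadjusted, 9 lower and 0 higher; DESeq2, 7 lower and 0 higher), whereas 14.2% of all tested genes were called, 7.05% higher and 7.14% lower. Of the genes called, 49.7% were higher, and 37.5% with upper-quartile scaling. Libraries did not overlap for 4 of the 10 genes, all lower, beside 10.4% of tested genes lower and 9.37% higher. The median log2 fold change was -0.91, beside -0.00037 over all tested genes, and every member was lower in 4 of 4 same-passage pairs. The genes called were Lmod1 (-1.76 ± 0.35, adjusted p = 0.00492), Acta2 (-1.21 ± 0.30, 0.0153), Myl9 (-1.09 ± 0.26, 0.0129), Tagln (-0.997 ± 0.29, 0.0338) and Tpm2 (-0.56 ± 0.11, 0.0047).

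Acta2 stood at 170 and 97.5 CPM in the CM libraries of PSC4 replicates 1 and 2 and at 91.9 and 210 CPM in those of PSC5. All 4 lie below the lowest control library, 250 CPM, and the mean was 142 ± 57.5 CPM, 2.32-fold lower in the fit. Lmod1 stood at 6.59, 4.02, 4.21 and 7.34 CPM in the same order, below all control libraries and, unlike Acta2, above every TGF-beta library. Actg2 (-0.83 ± 0.30, adjusted p = 0.0743), Cnn1 (-0.71 ± 0.29, 0.122), Tpm1 (-0.42 ± 0.18, 0.132) and Myh11 (-1.48 ± 0.48, 0.0512) were not called. Des, at -0.23 ± 0.42 (0.766), had the smallest value.

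How many genes were called in CM depended on how line and passage were handled. With line and passage as a block, 8 of 10 genes fell, with Actg2 (-0.89, adjusted p = 0.0358), Tpm1 (-0.49, 0.0124) and Myh11 (-1.45, 0.0429) added. Without the first-replicate PSC4 libraries 8 fell too, but with Cnn1 (-0.70, adjusted p = 0.0393) in place of Tpm1 (-0.47, 0.0579). Within either line alone, edgeR called 0 of 10, with Acta2 at -1.22 ± 0.31 in PSC4 and -1.11 ± 0.37 in PSC5. In these fits 9 of the 10 genes were below 0 in PSC4 and 10 in PSC5. The share of all genes called within a line is not reported here, so the 0 is not read as a loss of the fall. The Acta2 call was narrowly lost without CM PSC4 replicate 2 (-1.10, adjusted p = 0.0523) or CM PSC5 replicate 1 (-1.01, 0.0518). The Tagln call was lost without CM PSC4 replicate 2 (0.101), CM PSC5 replicate 2 (0.0508), CM PSC5 replicate 1 (0.115), control PSC4 replicate 1 (0.0624) or control PSC5 replicate 2 (0.0579). Without either of these CM libraries, PSC4 replicate 2 or PSC5 replicate 1, 3 of 10 were called.

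Epithelial marker RNA lay above the control range in the CM and neratinib libraries, except in those labelled PSC4 replicate 1. The summed level of 10 epithelial markers was 15.8 to 23.6 CPM in control and 14.8 to 20.4 CPM with TGF-beta, but 20.3 to 178 CPM in CM and 9.75 to 318 CPM with neratinib. It was high in the libraries numbered 2 (CM 178 and 148 CPM, neratinib 143 and 318 CPM), whose medium carries the code T6, and lower in those numbered 1 with the code T8 (CM 20.3 and 42.1 CPM, neratinib 9.75 and 51.3 CPM). The code is not explained in the sources used here. Acta2 was below control in the CM libraries of either code, at log2 ratios of -1.34 and -1.61 in the T8 pairs and -1.36 and -0.82 in the T6 pairs. The code coincides with the replicate number and so with the passage of each line, and these cannot be told apart. The part of the epithelial RNA in the values of Acta2 and the other members was not tested.

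The other lists in CM are read beside the 7.05% of tested genes called higher and 7.14% called lower. Of the other filament and anchoring genes 9 fell and 0 rose of 26, among them Mylk (-1.34 ± 0.42, adjusted p = 0.0450), and of the regulators 8 fell and 2 rose of 19, among them Mrtfa (-0.34 ± 0.10, 0.0358) and Fhl2 (-0.91 ± 0.13, 0.00045). Srf was at -0.16 ± 0.09 and not called. Of the cytoplasmic relatives 2 rose and 4 fell of 17; Actb (-0.13 ± 0.09) and Actg1 (-0.30 ± 0.23) were not called and Tagln2 rose by 0.81 ± 0.16. Of the direct TGF-beta response genes 7 rose and 1 fell of 20, so Skil (0.97 ± 0.17) rose in the same libraries in which Acta2 fell, while Ccn2 (-0.19 ± 0.30) and Col1a1 (-0.21 ± 0.28) were not called.

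CM with neratinib had the lowest levels of most of the 10 genes. Against control, 8 of 10 fell and 0 rose (edgeR; DESeq2 gave the same counts, and unadjusted 8 were lower and 0 higher), where 43.1% of tested genes were called, 22.2% higher and 20.9% lower. Of the genes called, 51.4% were higher, and 41.1% with upper-quartile scaling. The median log2 fold change was -1.53, beside 0.0046 over all tested genes. Myh11 (-0.37 ± 0.44) and Des (-0.49 ± 0.43) were the ones not called. Libraries of the 8 genes called did not overlap with control, beside 15.3% of tested genes in that direction and 14.1% in the other.

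Lmod1 fell by 2.16 ± 0.36 (log2), Cnn1 by 1.83 ± 0.32, Actg2 by 1.67 ± 0.31, Tagln by 1.66 ± 0.30, Myl9 by 1.57 ± 0.26, Acta2 by 1.48 ± 0.30, Tpm1 by 0.97 ± 0.18 and Tpm2 by 0.75 ± 0.11, all with adjusted p at or below 0.00147. Cnn1 stood at 1.62 and 3.97 CPM in PSC4 replicates 1 and 2 and at 8.39 and 7.38 CPM in PSC5, below every control library (lowest 11.3 CPM). Acta2 stood at 68.5 and 74.8 CPM in PSC4 and 152 and 205 CPM in PSC5. The control libraries of Acta2 other than PSC4 replicate 1 were also lower in PSC4 (250 and 261 CPM) than in PSC5 (280 and 371 CPM). The same 8 genes were called in PSC4 alone, and 3 (Tagln, Cnn1 and Lmod1) in PSC5 alone. In each line all 10 genes were below 0.

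Against CM without the inhibitor, neratinib lowered 1 of the 10 genes, Cnn1, and raised 0 (edgeR; unadjusted, 4 lower and 1 higher; DESeq2, 3 lower and 0 higher), with 20.5% of tested genes called, 10.8% higher and 9.63% lower. The median log2 fold change was -0.44, beside 0.00082 over all tested genes. Cnn1 went from 10.8, 8.79, 9.10 and 13.1 CPM in CM to 1.62, 3.97, 8.39 and 7.38 CPM with neratinib, a log2 fold change of -1.12 ± 0.32 (adjusted p = 0.0246). The libraries do not overlap for this 1 gene of the 10, beside 9.14% of tested genes in that direction and 9.61% in the other. That call did not hold without the first-replicate PSC4 libraries (-0.72, adjusted p = 0.0584), nor without CM PSC4 replicate 1 (-0.95, 0.0721), CM PSC4 replicate 2 (-1.09, 0.0503) or neratinib PSC4 replicate 1 (-0.84, 0.0577).

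Tpm1 was lower with neratinib in 4 of 4 same-passage pairs (-0.54 ± 0.19, adjusted p = 0.0544) and was called with line and passage as a block (-0.51, adjusted p = 0.00803), which made 2 of 10. Actg2 (-0.85 ± 0.32, adjusted p = 0.0727) and Tagln (-0.66 ± 0.30, 0.139) were not called. Acta2 stood at -0.27 ± 0.31 with a 95% interval of 0.529-fold to 1.30-fold, and its pairs went from -1.31 to 0.73. Myh11 was higher in 4 of 4 pairs (1.11 ± 0.50, adjusted p = 0.134), at 4 to 17 counts per library.

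The difference between the lines in their neratinib values did not pass its test. In PSC4 the fitted change was -0.91 for Acta2, -1.56 for Actg2, -1.81 for Cnn1 and -1.04 for Myl9, and in PSC5 it was 0.25, -0.20, -0.49 and -0.017. The pair of PSC4 replicate 1 alone gave log2 ratios of -1.31, -2.05, -2.74 and -1.70 for these 4 genes. Without it, the pair of PSC4 replicate 2 gave -0.38, -0.98, -1.15 and -0.35, beside -0.034, -0.84, -0.83 and -0.35 in PSC5 replicate 2 and 0.73, 0.43, -0.12 and 0.45 in PSC5 replicate 1. The test of line against neratinib called 0 of 10 genes (edgeR) and 0.00% of all genes tested. Cnn1 (edgeR, unadjusted p = 0.0247, adjusted p = 1.00) and Actg2 (unadjusted p = 0.0292, adjusted p = 1.00) were the members under an unadjusted 0.05. The tests of line against TGF-beta and against CM also called 0 of 10 and 0.00% of all genes, with 1 gene (Cnn1) and 0 genes at unadjusted p under 0.05. The neratinib library labelled PSC4 replicate 1 was the lowest of its group for 6 of the 10 genes.

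Set directly against TGF-beta, the CM group had 5 genes lower and 1 higher (edgeR; unadjusted and DESeq2 gave the same counts), with 35.3% of tested genes called, 17.8% higher and 17.5% lower. Libraries did not overlap for 3 genes in the lower direction (15.9% of tested genes) and 1 in the higher (15.6%). Actg2 was lower by 1.41 ± 0.31 (log2), Acta2 by 1.34 ± 0.31, Tagln by 0.87 ± 0.30, Cnn1 by 0.84 ± 0.31 and Tpm2 by 0.53 ± 0.12, and Lmod1 was higher by 1.13 ± 0.37 (adjusted p = 0.0271). Myl9, low in both, was at -0.21 ± 0.26 and not called. The Acta2 difference was called in all 20 alternative settings, each line alone included. The Tagln call was lost on leaving out CM PSC4 replicate 2, CM PSC5 replicate 1 or 2, TGF-beta PSC4 replicate 3 or TGF-beta PSC5 replicate 1 or 2 (adjusted p from 0.0537 to 0.111). The Cnn1 call was lost on leaving out CM PSC4 replicate 2, CM PSC5 replicate 1 or 2, TGF-beta PSC4 replicate 2 or TGF-beta PSC5 replicate 1 or 2 (0.0543 to 0.148). The Lmod1 call was lost on leaving out CM PSC4 replicate 1, CM PSC5 replicate 2, TGF-beta PSC4 replicate 2 or 3 or TGF-beta PSC5 replicate 2 (0.0539 to 0.0868). Tpm1 (-0.33 ± 0.19) was called with line and passage as a block (-0.49, adjusted p = 0.00823). It was also called without the first-replicate PSC4 libraries (-0.49, 0.0246). The count was 3 of 10 without CM PSC5 replicate 2 or without TGF-beta PSC5 replicate 2.

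The neratinib group had 7 genes lower and 0 higher than TGF-beta (edgeR; unadjusted, 7 lower and 1 higher; DESeq2, 7 lower and 0 higher), with 44.0% of tested genes called, 23.1% higher and 20.9% lower. Libraries did not overlap for 6 genes, all lower, beside 15.2% of tested genes lower and 14.7% higher. The values ran from -2.25 ± 0.32 for Actg2 and -1.96 ± 0.32 for Cnn1 to -0.70 ± 0.27 for Myl9 (adjusted p = 0.0457), and the Myl9 call was lost with line and passage as a block (-0.70, adjusted p = 0.0577) and on leaving out neratinib PSC4 replicate 1 (0.136) or 2 (0.106), TGF-beta PSC4 replicate 2 (0.0664) or 3 (0.0966) or TGF-beta PSC5 replicate 1 (0.119). Without the first-replicate PSC4 libraries the Myl9 call was lost as well (-0.52, adjusted p = 0.0662). Lmod1 stood at 0.73 ± 0.37, and was at 1.06 CPM in the neratinib library labelled PSC4 replicate 1. Without that library it was called higher (1.07, adjusted p = 0.0039), as it was without all first-replicate PSC4 libraries (1.06, 0.0042). The comparisons with control share the control libraries and those with TGF-beta share the TGF-beta libraries, so they are not independent of each other.

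For the other lists in the neratinib group, the shares over all tested genes are 43.1% called, 22.2% higher and 20.9% lower, and nothing particular to a list is read from its counts. Of the other filament and anchoring genes 15 fell and 1 rose of 26 against control. Mylk (-1.85 ± 0.43) and Itga1 (-1.21 ± 0.44) fell, and Pdlim7 rose by 0.43 ± 0.13. Of the regulators 6 fell and 3 rose of 19: Fhl2 (-1.42 ± 0.13), Csrp2 (-0.78 ± 0.15) and Tgfb1i1 (-0.62 ± 0.18) fell, and Elk3 (0.46 ± 0.09), Elk1 (0.40 ± 0.06) and Prrx1 (0.35 ± 0.11) rose. The cytoplasmic relatives were evenly divided, with 3 higher and 3 lower of 17: Tagln2 (1.10 ± 0.17) and Tpm4 (0.31 ± 0.07) rose, and Cnn2 (-0.80 ± 0.13) and Myh10 (-0.47 ± 0.10) fell. Of the direct TGF-beta response genes 6 rose and 6 fell of 20: Bhlhe40 (1.15 ± 0.18), Skil (0.97 ± 0.17) and Tgfb1 (0.83 ± 0.18) rose, and the matrix genes Postn (-2.60 ± 0.91), Col5a1 (-1.44 ± 0.20) and Col3a1 (-1.11 ± 0.39) fell. Of 8 tested sarcomeric genes 1 rose, Acta1, with 7 to 139 counts per library against 0 to 3 in control. Acta1 was under the minimum count of the filter in every control library, so a fall of it could not have been seen.

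Across the 17 libraries, the most abundant of the 10 genes varied together. The Pearson correlation of log2 CPM with Acta2 was 0.95 for Tpm2 and Tagln, 0.92 for Actg2, 0.87 for Tpm1, 0.86 for Cnn1 and 0.83 for Myl9, but 0.36 for Lmod1, 0.30 for Des and -0.02 for Myh11. Of 9771 genes with a mean of at least 10 CPM, the 5 most alike Acta2 by that measure were Fscn1 (0.96), Prss23 (0.96), Tpm2, Cnn2 (0.95) and Tagln. These correlations are descriptions; the libraries share groups, lines and passages. After removal of the group means Myl9 was at 0.94 with Acta2, Tagln at 0.91, Des at 0.68 and Lmod1 at 0.65.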

How the data were processed

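Each library has 1 deposited file of expected counts by Ensembl gene ID. The authors' processing, per the submitters' processing notes, names Salmon 1.4.0, DESeq 2 and the GRCm38 (mm10) build, without their roles. The annotation release and read filters are not given in the sources used here. Values were rounded to whole numbers (74.8% of those above 0 were not whole). Groups came from the labels. A model over all 17 libraries was tested in edgeR 4.0.16 (quasi-likelihood, R 4.3.3), with TMM factors, filterByExpr (minimum count 10), group and cell line as terms and Benjamini-Hochberg adjustment at 0.05; the fit was checked on simulated data. SE is the fold change over the root of F. Totals of 22168953 to 29421447 counts make 3 counts worth 0.102 to 0.135 CPM. CPM per kb used exon lengths of GENCODE M21, and promoters came from RefSeq (GRCm38.p6).

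The 6 comparisons and 3 interactions were fitted. Alternatives were other scalings (DESeq2 1.42.0 size factors, upper quartile), filters, DESeq2, only the 2 groups compared, no line term, each line alone, the first-replicate PSC4 libraries counted with PSC5 or removed, and each library left out. The replicate number marks a passage of a line, and samples of the same line and number deviated together (22 of 22 pairs with r above 0.1, median 0.30), so a block of line and number was also fitted. The genes and lists were chosen with earlier results of these data known. Named from the lists were genes fixed by name and, where called at a mean of at least 10 CPM, the 3 largest rises and falls under TGF-beta and under CM with neratinib against control. Some genes that this rule names are not reported here.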

Additional observations from a re-analysis of the deposited data

Results flagged for a closer look

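Lmod1 with TGF-beta had 1 library far from the others: PSC5 replicate 1 stood at 3.65 CPM and the nearest other library at 2.35 CPM. It was the 1 such library among 40 checks of a gene in a group, where chance flags about 1 in 20. All 4 libraries lay below the lowest control library, 15.98 CPM.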

How the results depend on the processing

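Of 1221 refits of a gene's fold change, 1076 kept direction and side of the threshold, 77 lost the call, 34 gained it and 34 reversed; the cause was not tested. Neratinib against CM, with 1 gene called, had 3 with DESeq2, 0 with only the 2 groups or no line term, and 0 within PSC4 or PSC5 alone. With the replicate block (paired by line and number) it had 2, with the first-replicate PSC4 libraries treated as PSC5 it had 2, and without them 0. CM against control, with 5, had 8 under each of those 3 settings and 0 within either line. PSC5 alone gave 1 for TGF-beta against control, 3 for neratinib against control and 4 for neratinib against TGF-beta, and PSC4 alone gave 2 for CM against TGF-beta. Leaving out single libraries gave 2 to 4 for TGF-beta, 3 to 6 for CM and 8 for neratinib against control, 0 to 3 for neratinib against CM, and 3 to 5 and 6 to 7 for CM and neratinib against TGF-beta. The block changed no call of a gene beyond those given with the results. The shares over all tested genes in these refits are not reported here, so the refit counts describe the members only.

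The reversals were of values near 0. Under TGF-beta against control, Tagln was at 0.069 with the block, 0.016 without a line term, 0.10 and 0.16 with the first-replicate PSC4 libraries counted with PSC5 or removed, and 0.25 in PSC5. Tpm1 was at 0.0045 with the block, 0.024 with those libraries removed and 0.11 in PSC5, Tpm2 at 0.028 with them removed, and Cnn1 at -0.33 in PSC4. For CM against TGF-beta, Myh11 was at 0.058 with the block, 0.13 and 0.068 with those libraries moved or removed and 0.032 in PSC5. Against CM, neratinib had Acta2 at 0.070 and Lmod1 at 0.085 with them removed, and Acta2 at 0.25, Lmod1 at 0.12 and Des at 0.11 in PSC5. Des was at -0.0043 with the block for neratinib against TGF-beta and at 0.00052 in PSC4 for CM against control. Leaving out single libraries, TGF-beta against control ranged from -0.24 to 0.17 for Tagln, -0.15 to 0.027 for Tpm1, -0.080 to 0.035 for Tpm2 and -0.022 to 0.30 for Cnn1. Des ranged from -0.58 to 0.067 for CM against control and -0.57 to 0.070 for neratinib against CM, and Myh11 from -0.47 to 0.19 for CM against TGF-beta. Upper-quartile scaling moved the share of called genes that were higher from 49.7% to 37.5% for CM and from 51.4% to 41.1% for neratinib against control. At 2 to 27 counts per library, Myh11 is limited by depth, and the stricter filter dropped it.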

Other observations

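Among the vascular smooth muscle and pericyte markers, Cspg4, chosen after its values were seen, went from 3.67 ± 1.86 CPM in control (SD, n = 5) to 62.3 ± 28.6 CPM with TGF-beta (SD, n = 4), a log2 fold change of 4.13 ± 0.34 (adjusted p = 4.77e-07, edgeR). It stood at 2.79 ± 1.62 CPM in CM. Mcam also rose (0.53, adjusted p = 0.0358), while Myh11 fell (-1.45, 0.025). Rgs5 (-1.19, 0.134), Notch3 (-0.019, 0.972) and Cnn1 (0.13, 0.762) were not called. Of the 6 tested genes of that list 2 were thus higher and 1 lower, beside 19.7% and 20.5% of all tested genes.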
